A study of Mus musculus with 6 samples.

Results

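Microvilli are the finger-like projections that form the brush border of absorptive enterocytes. The set described here holds 10 genes for their structure, Vil1, Espn, Pls1, Eps8, Ezr, Myo1a, Cdhr2, Cdhr5, Ush1c and Myo7b. Chromatin accessibility near them was taken from ATAC-seq read counts in windows of 200 bp: every window whose nearest end of a protein-coding gene belonged to one of the 10 genes and lay within 50 kb was a member, which gave 40 of 55056 windows. The choice used position only and no measured value. Of these windows, 24 lay inside the gene, 11 outside it and 5 over a gene end.

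The libraries came from mouse small intestinal organoids, which are crypt-derived epithelial cultures embedded in an extracellular matrix, of a single line, labelled line26 wild type, from a female Lgr5GFPDTR/+ mouse, so all libraries shared this Lgr5 allele. RANKL organoids (n = 3) had been given 3 µM CHIR99021, a GSK3 inhibitor, and 1.5 mM valproic acid, a histone deacetylase inhibitor, for 3 days, then ENR medium for 1 day and 100 ng/ml RANKL for 6 days. RANKL is the cytokine that induces microfold (M) cells in the gut epithelium. Control organoids (n = 3) were kept in ENR medium (EGF, Noggin and R-spondin 1) to day 6. Control libraries carry names that start with CVENR, a prefix no label explains, and none states whether the controls had received CHIR99021 and valproic acid before. If they had not, effects of these agents and of RANKL cannot be told apart. Replicates were separate differentiation experiments of that 1 line, and p-values measure the spread between them. In a bulk culture, more cells of a type and more open chromatin per cell cannot be told apart either.

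In a microvillus, a core of parallel actin filaments is cross-linked by bundling proteins and tied to the plasma membrane by ERM proteins and unconventional myosins. Protocadherins at the tips link neighbouring microvilli, held by a scaffold and a myosin inside the cell, and this adhesion packs the brush border. M cells, which take up particles over Peyer's patches, carry short and sparse microvilli, and this is the question the comparison addresses at the level of chromatin. Accessibility near a gene is not its expression, and a window may act on a gene other than its nearest.

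Totals were 322173 to 828445 counts in RANKL libraries and 455083 to 976881 in control libraries, so that 3 counts were worth 3.95 to 12.2 CPM (read counts scaled to a common library size). The correlation of log2 CPM across tested windows was 0.69 to 0.77 among RANKL libraries, 0.82 to 0.87 among controls and 0.44 to 0.54 between the groups, over windows that are not independent replicates. Of the marker lists for other cell types, those for M cells, stem cells and enterocytes had summed levels that did not overlap between the groups, each with called genes. Among all tested genes, 7.06% were called higher with RANKL and 8.30% lower. Of 11 tested M cell genes 6 were higher with RANKL and none lower, with a summed level of 953 to 1183 CPM in RANKL and 568 to 636 CPM in control libraries. Of those higher, Sox8, H2-M2, Msln and Marcksl1 had control means of 2.28, 2.75, 6.82 and 18.1 CPM. They passed the filter on low counts through the RANKL libraries and could hardly have been called lower. The count of higher M cell genes is therefore no test of the list. Of 7 stem cell genes 5 were lower and none higher (715 to 825 CPM in RANKL and 1062 to 1261 CPM in control libraries), and of 8 tested enterocyte genes 2 were lower and none higher (578 to 711 CPM in RANKL and 738 to 841 CPM in control libraries). The called enterocyte genes were Sis (192 CPM with RANKL and 310.2 CPM in controls) and Mep1a (49.2 CPM with RANKL and 104 CPM in controls). The other 9 with a window summed to 363, 447 and 436 CPM in RANKL replicates 1, 2 and 3 and to 411, 400.0 and 361 CPM in control replicates 1, 2 and 3, which overlapped. These genes remain after those called lower were taken out, so the gap was bound to narrow and the overlap says nothing of the whole list. Among these 9, chosen after their values were seen, Anpep (70.2 CPM with RANKL and 50.3 CPM in controls, not called) and Apoa4 (51.2 CPM with RANKL and 10.9 CPM in controls, not tested) had every RANKL library above every control. In the opposite direction, Fabp1 (7.61 CPM with RANKL and 13.3 CPM in controls, not tested) and Fabp2 (46.3 CPM with RANKL and 65.1 CPM in controls, not called) had every RANKL library below every control. Of 4 goblet cell genes 3 were tested, too few to set against these shares, and 1 was lower (200 to 243 CPM in RANKL and 219 to 278 CPM in control libraries). Haematopoietic genes (2 of 6 tested) had 66.4 to 106 CPM in RANKL and 70.6 to 93.7 CPM in control libraries, and mesenchymal genes (3 of 5 tested) had 82.0 to 152 CPM in RANKL and 122 to 152 CPM in control libraries, with none called. The part of any of these lists in the results below was not tested.

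Chromatin near most microvillus genes was not called different between RANKL-treated and control organoids, and the exception was Eps8, which fell. Counts were summed per gene over its windows and tested across all 12466 genes deep enough (edgeR quasi-likelihood test, Benjamini-Hochberg adjustment, threshold 0.05, n = 3 per group). All 10 genes passed the filter on low counts. Of these, 1 was lower and none was higher, at an edgeR unadjusted p under 0.05 for 1 gene, while among all tested genes 8.30% were lower and 7.06% higher. For 10 genes, the count of 1 lower is near that share. The median log2 fold change (RANKL over control) was -0.01 over the 10 genes and 0.01 over all tested genes. For 6 of the 9 genes that were not called, the 95% interval of the log2 fold change lay between -1 and 1, so a 2-fold difference in either direction was outside it, and for the other 3, each with 1 or 2 windows, it reached further.

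**Figure D1:**
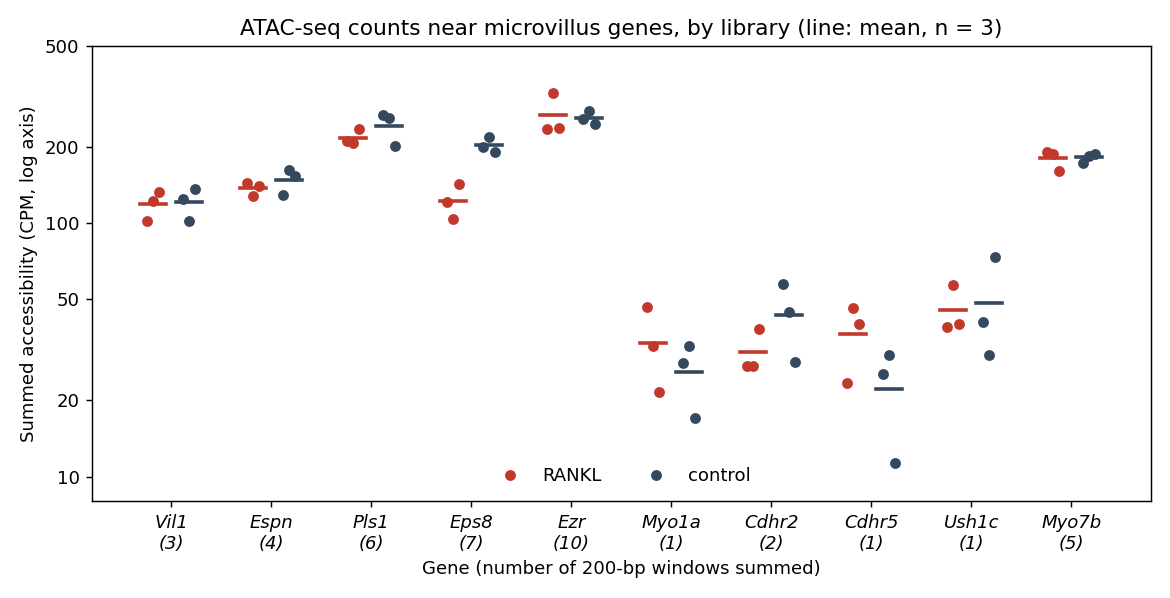
Summed accessibility near each microvillus gene (CPM, log axis) in each library, with RANKL libraries on the left and control libraries on the right of each gene and the group mean as a line. Eps8 is the gene whose groups did not overlap, at 104 to 143 CPM with RANKL and 190 to 218 CPM in controls.

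Among single windows the picture was the same. Of the 40 windows, 24 passed the filter on low counts and 16 did not. Of those tested, 1 was lower, none was higher and 23 were not called, and 2 had an edgeR unadjusted p under 0.05. Among all 21618 tested windows 10.0% were lower and 10.0% higher. The estimates of the 23 windows that were not called lay between -0.85 and 0.72 on the log2 scale, and for 13 of them the 95% interval excluded a 2-fold difference in either direction. In 2 windows all RANKL libraries were above all controls and in 4 all were below, against 16.5% and 16.9% of all tested windows, and the groups overlapped in 18. The 16 windows below the filter held 0 to 19 counts in a library, and 8 of them had no count in at least 1 library.

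**Figure D2:**
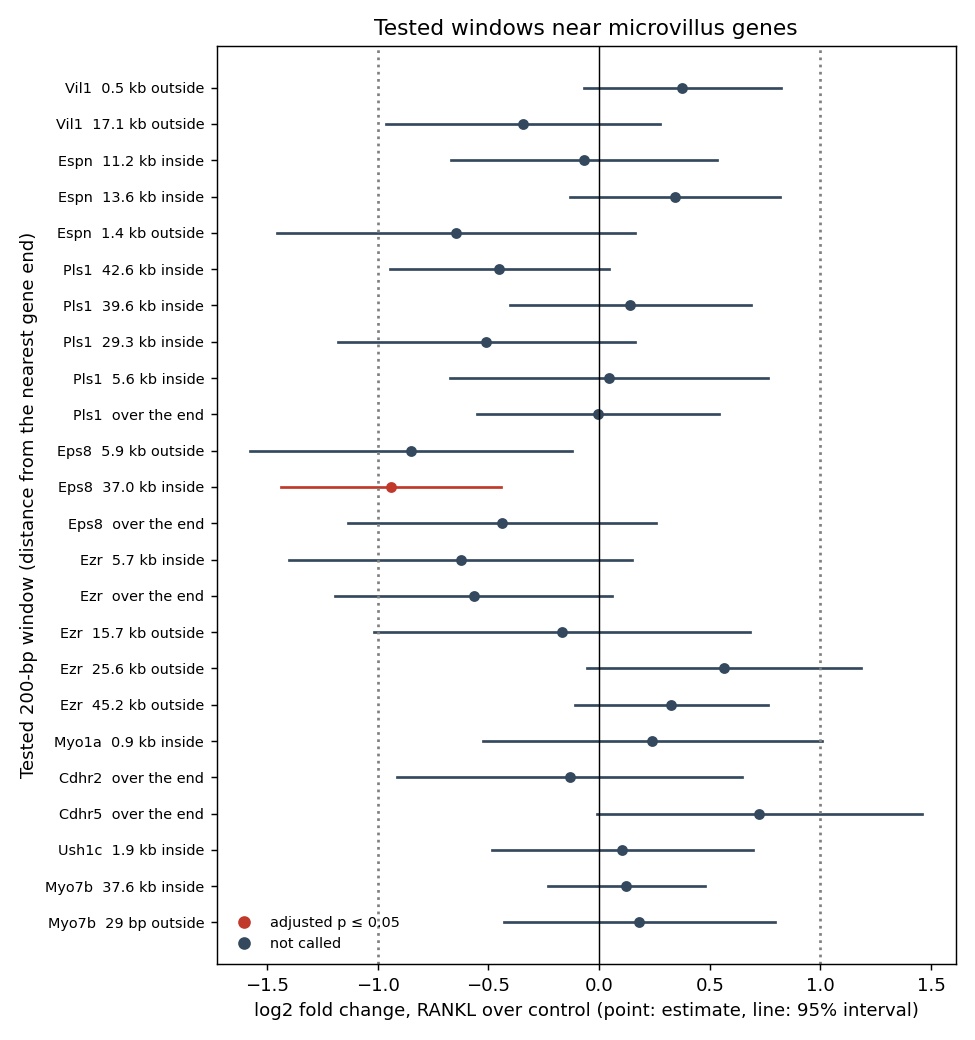
Log2 fold change of RANKL over control for the 24 tested windows, ordered by the role of the gene, with 95% intervals as lines and dotted lines at a 2-fold difference. The window 37.0 kb inside Eps8 (-0.94) is the one that passed the test, and the estimates of the others lie on both sides of 0.

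A distance of at most 1 kb from a gene end held for 8 of the 40 windows and for 19.0% of all windows, and 8 of the 10 genes had such a window. The promoter sequences used here (RefSeq starts, build GRCm38.p6) cover 8 of the 10 genes and lack Eps8 and Myo7b. Of these 8 genes, 4 had a counted window on a start. Their promoters are shown because they are the stretches of these genes that were both measured and of known sequence. Each line is the 250 bases before the start, 5′ to 3′ on the strand of the gene, with the bases inside the counted window in capitals. Ezr lies at chr17:6782781-6783030 (minus strand), Cdhr2 at chr13:54701213-54701462 (plus strand), Cdhr5 at chr7:141276787-141277036 (minus strand) and Pls1 at chr9:95845280-95845529 (minus strand).
Ezr: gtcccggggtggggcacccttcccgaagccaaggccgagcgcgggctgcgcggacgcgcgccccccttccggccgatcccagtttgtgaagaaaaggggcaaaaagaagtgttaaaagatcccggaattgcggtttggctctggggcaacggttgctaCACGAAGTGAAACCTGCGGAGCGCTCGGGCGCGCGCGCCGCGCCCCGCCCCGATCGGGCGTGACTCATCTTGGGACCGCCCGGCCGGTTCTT
Cdhr2: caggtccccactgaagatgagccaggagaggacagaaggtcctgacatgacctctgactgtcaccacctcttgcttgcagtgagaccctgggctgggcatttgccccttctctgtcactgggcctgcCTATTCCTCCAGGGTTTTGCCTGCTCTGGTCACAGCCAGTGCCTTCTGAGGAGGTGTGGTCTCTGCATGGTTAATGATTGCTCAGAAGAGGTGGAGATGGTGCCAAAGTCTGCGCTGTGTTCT
Cdhr5: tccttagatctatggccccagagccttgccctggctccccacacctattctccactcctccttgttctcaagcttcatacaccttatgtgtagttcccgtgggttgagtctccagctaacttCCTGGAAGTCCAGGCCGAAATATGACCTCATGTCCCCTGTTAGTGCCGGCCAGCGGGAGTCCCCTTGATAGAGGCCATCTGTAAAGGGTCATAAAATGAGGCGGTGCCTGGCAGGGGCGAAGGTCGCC
Pls1: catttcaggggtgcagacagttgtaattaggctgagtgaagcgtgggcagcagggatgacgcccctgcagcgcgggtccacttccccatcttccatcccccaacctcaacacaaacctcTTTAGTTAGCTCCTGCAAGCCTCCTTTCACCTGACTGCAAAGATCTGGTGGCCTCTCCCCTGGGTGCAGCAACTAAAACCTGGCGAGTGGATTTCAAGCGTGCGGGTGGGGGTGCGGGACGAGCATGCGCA

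The counted bases were 92 of 250 at Ezr, 123 at Cdhr2, 128 at Cdhr5 and 131 at Pls1. In none of these 4 windows was a difference called in the 200-bp counts. The 250 bases before all 10 listed starts of the 8 genes (Espn has 3) were searched on both strands for CATAAA (CDX), CAAAGTCCA (HNF4), ATCAAT (ONECUT), GGGANTTCC (NF-kB) and TGANTCA (AP-1). CATAAA occurred once before Cdhr5, beginning 39 bases before the start and inside the counted window, and once before an inner start of Espn. TGANTCA occurred once before Ezr, beginning 32 bases before the start and inside the counted window. Of 32851 promoters of the same length 10.8% held CATAAA and 6.75% TGANTCA. The other 3 motifs, present in 0.384% (HNF4), 6.72% (ONECUT) and 1.43% (NF-kB) of promoters, did not occur before these starts, and no matches overlapped.

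The genes for the actin-bundling proteins were not called. Villin, encoded by Vil1 (chromosome 1, 74409384 to 74435560), bundles actin and severs it when calcium is high, and its gene is a marker of the intestinal epithelium. Its 3 windows summed to 102, 123 and 132 CPM in RANKL replicates 1, 2 and 3 and to 124, 102 and 136 CPM in control replicates 1, 2 and 3, so the groups overlapped widely (log2 fold change 0.05 ± 0.19, SE, edgeR adjusted p = 0.902, 95% interval -0.31 to 0.41). The window 452 bp outside the gene, next to the start, had 57.0, 86.6 and 86.8 CPM with RANKL and 65.9, 60.5 and 56.6 CPM in controls. Its estimate was 0.37 ± 0.23 (adjusted p = 0.252), and in counts of 2 kb around the same centre it was -0.26 ± 0.16 (adjusted p = 0.292). RANKL replicate 1 was the lowest library of its group in this window. The window 17072 bp outside had -0.34 ± 0.32, and the window 5810 bp inside held 1 to 12 counts in a library and was not tested.

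Espin, encoded by Espn (chromosome 4, 152120331 to 152152414), is a bundler that lengthens parallel actin bundles and is also needed in the stereocilia of hair cells. Its 4 windows summed to 144, 128 and 140 CPM in RANKL replicates 1, 2 and 3 and to 130, 162 and 153 CPM in control replicates 1, 2 and 3 (log2 fold change -0.11 ± 0.17, SE, edgeR adjusted p = 0.729, 95% interval -0.44 to 0.23). The RANKL values all lay within or just below the span of the controls. Among its windows, that 13624 bp inside had 66.4 to 89.5 CPM with RANKL and 50.9 to 58.7 CPM in controls with no overlap (0.34 ± 0.24, adjusted p = 0.341), whereas that 1422 bp outside had 16.3 to 26.2 CPM with RANKL and 25.8 to 39.6 CPM in controls (-0.65 ± 0.41, adjusted p = 0.282). Neither passed the test.

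Pls1 (chromosome 9, 95752642 to 95845306) encodes plastin 1, also called fimbrin, the third bundler of the core. Its 6 windows summed to 211, 207 and 235 CPM in RANKL replicates 1, 2 and 3 and to 268, 259 and 202 CPM in control replicates 1, 2 and 3. Control replicate 3 lay below every RANKL library and the other controls above them (log2 fold change -0.17 ± 0.13, SE, edgeR adjusted p = 0.424, 95% interval -0.43 to 0.09). The window over its start, the promoter shown above, had 48.8, 51.9 and 50.8 CPM with RANKL and 53.0, 55.3 and 39.6 CPM in controls, which overlapped (-0.01 ± 0.28, adjusted p = 0.992). The 4 other tested windows inside Pls1 had estimates from -0.51 to 0.14. Of these, that 42588 bp inside had 40.4 to 61.0 CPM with RANKL, below the 64.4 to 74.98 CPM of all controls, without passing the test (adjusted p = 0.209).

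Eps8 was the gene that fell. It encodes an actin-capping and bundling protein found at the tips of microvilli, and it spans chromosome 6, 137477245 to 137649397, the longest gene of the set. The sum over its 7 windows within 50 kb of an end was 121, 104 and 143 CPM in RANKL replicates 1, 2 and 3 and 200, 218 and 190 CPM in control replicates 1, 2 and 3, with a clear gap between the groups. The log2 fold change was -0.70 ± 0.16 (SE, n = 3 per group, 95% interval -1.01 to -0.39) with an edgeR adjusted p of 0.000317. The gene was lower under all 19 alternative settings, with log2 fold changes from -0.88 to -0.39, and was called in 17 of them (adjusted p from 4.94e-06 to 0.356). The call ended at a limit of 1 kb (-0.58, adjusted p = 0.342) and of 5 kb (-0.55, adjusted p = 0.356), each of which keeps 1 window of the gene. The summed levels of the stem cell and enterocyte lists were also lower in every RANKL library than in any control. Without the called genes Sis and Mep1a the enterocyte sums overlapped, but taking out genes called lower was bound to narrow the gap. The part of either list in the Eps8 result was not tested.

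The window of Eps8 that passed the test lies deep inside the gene, at chromosome 6, 137612173 to 137612372, 37025 bp from the nearer end. It had 36.6, 34.6 and 49.2 CPM in RANKL replicates 1, 2 and 3 and 78.8, 84.2 and 79.2 CPM in control replicates 1, 2 and 3. Every RANKL library was below every control, whose values were close together, and the log2 fold change was -0.94 ± 0.25 (SE, edgeR adjusted p = 0.00253). The call held in all 15 alternative settings run for windows (log2 fold changes from -1.34 to -0.84, adjusted p from 4.71e-07 to 0.0332). The window 5870 bp outside the gene had 28.5, 11.5 and 29.5 CPM with RANKL and 44.4, 35.5 and 53.8 CPM in controls, again with no overlap (-0.85 ± 0.37, adjusted p = 0.0891). The window over the higher-coordinate end had 20.3, 28.9 and 34.4 CPM with RANKL and 32.9, 53.9 and 28.3 CPM in controls, which overlapped (-0.44 ± 0.35, adjusted p = 0.418). Without the called window the other 6 windows summed to 85.9, 70.8 and 96.8 CPM with RANKL and 123, 135 and 111 CPM in controls, with no overlap. This sum was not tested and belongs to a gene picked for its low total, so it is no separate support. Apart from the windows 5870 bp outside and over the end, its windows held too few counts to be tested.

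A further 7 windows lay inside Eps8 but more than 50 kb from either end and were no members. All 7 were deep enough to test, and 1 was lower and none higher, against 10.0% lower and 10.0% higher among all tested windows. For 7 windows, the count of 1 is near that share. That window, 78367 bp from the nearer end, had 61.0, 40.4 and 63.9 CPM in RANKL replicates 1, 2 and 3 and 106, 85.5 and 76.4 CPM in control replicates 1, 2 and 3 (log2 fold change -0.69 ± 0.22, SE, edgeR adjusted p = 0.0151). This call ended in 4 of 15 alternatives, among them without RANKL replicate 2 (adjusted p = 0.134) and without control replicate 1 (0.125), over a range of 3.96e-05 to 0.23. The window 63549 bp inside had 28.5, 23.1 and 37.7 CPM with RANKL and 57.3, 44.7 and 56.6 CPM in controls, with no overlap (-0.74 ± 0.32, adjusted p = 0.0902). In the opposite direction, the window 81685 bp inside had 20.3, 26.0 and 24.6 CPM with RANKL and 8.59, 19.7 and 5.66 CPM in controls, also with no overlap (0.94 ± 0.53, adjusted p = 0.215). It and 4 others were not called, with estimates from -0.12 to 0.94, of which 4 were above 0. The sum over the 7 inner windows was 301, 245 and 273 CPM with RANKL and 338, 297 and 307 CPM in controls, where RANKL replicate 1 overlapped the controls. The member closest to the 50-kb limit was on Ezr at 45181 bp, with 68.8 to 106 CPM with RANKL and 56.6 to 68.7 CPM in controls, and the nearest window of the set's genes beyond it was on Eps8 at 51394 bp, with 17.3 to 44.2 CPM with RANKL and 32.9 to 42.4 CPM in controls.

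**Figure D3:**
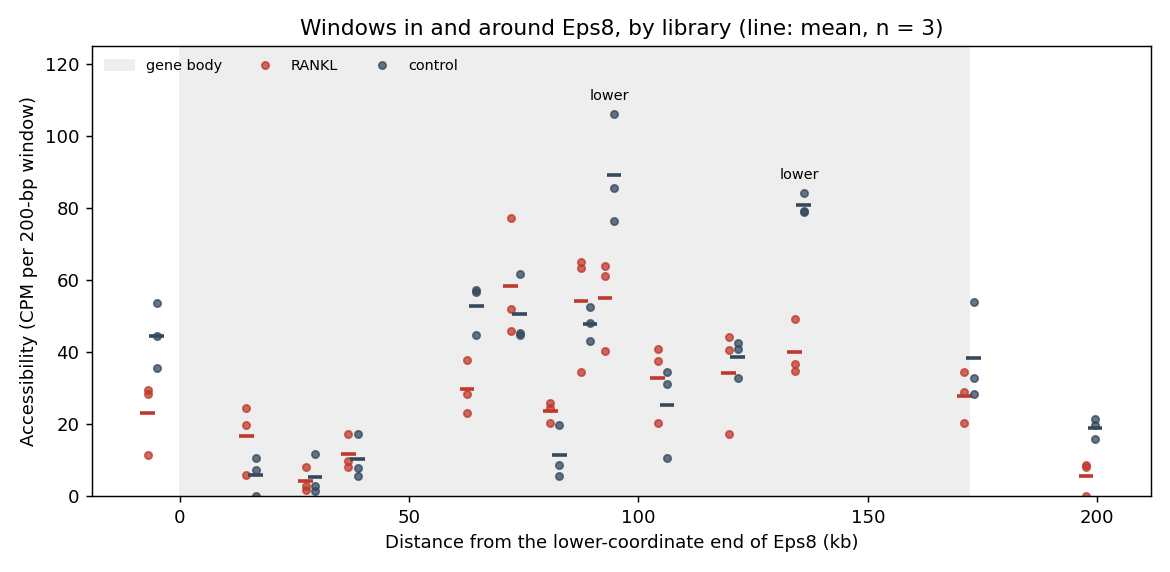
Accessibility of the 14 windows in and around Eps8 (CPM per 200-bp window) against the distance from its lower-coordinate end in kb, with a point for each library and the group means as lines. The windows marked as lower, at a mean of 55.1 and 40.1 CPM with RANKL and 89.3 and 80.7 CPM in controls, have all RANKL libraries below all controls.

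The genes that tie the core to the membrane were not called. Ezr (chromosome 17, 6738131 to 6782780) encodes ezrin, the ERM protein that links actin to membrane proteins in the intestinal epithelium, and had the most windows of the set, 10. They summed to 234, 327 and 238 CPM in RANKL replicates 1, 2 and 3 and to 256, 277 and 247 CPM in control replicates 1, 2 and 3 (log2 fold change 0.01 ± 0.13, SE, edgeR adjusted p = 0.958, 95% interval -0.24 to 0.26). RANKL replicate 2 lay above all controls and the other RANKL libraries below them. In windows within 1 kb the estimate had the opposite sign, at -0.71 (adjusted p = 0.164), and the highest adjusted p over all 19 alternatives was 0.994 and the lowest 0.0105, in loess-corrected 2-kb counts (0.30).

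The estimates of the Ezr windows lay on both sides of 0, and none was called in the 200-bp counts. The window over the start, the promoter shown above, had 4.07, 46.2 and 39.3 CPM in RANKL replicates 1, 2 and 3 and 34.4, 61.8 and 53.8 CPM in control replicates 1, 2 and 3. RANKL replicate 1 rested on 1 count there, and the estimate was -0.57 ± 0.32 (SE, adjusted p = 0.213). The window 5711 bp inside had 20.3 to 26.0 CPM with RANKL, below the 32.9 to 39.6 CPM of all controls (-0.63 ± 0.40, adjusted p = 0.276), whereas that 25563 bp outside had 36.6 to 57.3 CPM with RANKL and 28.9 to 40.1 CPM in controls (0.57 ± 0.32, adjusted p = 0.207). None of these passed the test. A window 19984 bp inside held too few reads to be tested, 5, 17 and 11 counts in RANKL replicates 1, 2 and 3 and 9, 6 and 2 counts in control replicates 1, 2 and 3. With no filter it was called higher (1.61, adjusted p = 0.0432), and without RANKL replicate 1, when it passed the filter, as well (1.73, adjusted p = 0.0261). In that setting it passed through the remaining RANKL libraries alone, the group where it was high, so this call is no separate support.

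Myo1a (chromosome 10, 127703436 to 127720940) encodes the brush border myosin that links the core sideways to the membrane. Its 1 window, 943 bp inside the gene, had 12, 12 and 14 counts in RANKL replicates 1, 2 and 3 and 20, 25 and 6 counts in control replicates 1, 2 and 3. As a gene sum this was 46.9, 32.7 and 21.5 CPM with RANKL and 28.2, 32.7 and 17.03 CPM in controls, with wide overlap (log2 fold change 0.19 ± 0.42, SE, edgeR adjusted p = 0.816). The 95% interval, -0.63 to 1.02, takes in a 2-fold rise, which these counts therefore do not exclude.

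The genes of the tip-link adhesion complex were not called in the 200-bp counts, with estimates on both sides of 0. Cdhr2 and Cdhr5 encode the protocadherins that join neighbouring microvilli. The 2 windows of Cdhr2 (chromosome 13, 54701463 to 54736662) summed to 27.3, 27.2 and 38.4 CPM in RANKL replicates 1, 2 and 3 and to 57.8, 44.4 and 28.4 CPM in control replicates 1, 2 and 3 (log2 fold change -0.49 ± 0.35, SE, edgeR adjusted p = 0.369). Control replicate 3 lay among the RANKL libraries. The window over the start, shown above, had 28.5, 23.1 and 29.5 CPM with RANKL and 31.5, 32.9 and 22.6 CPM in controls (-0.13 ± 0.40), and that 7925 bp inside held 0, 2 and 7 counts with RANKL and 19, 9 and 2 counts in controls and was not tested.

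Cdhr5 (chromosome 7, 141269080 to 141276795), the shortest gene of the set, had 1 window, over its start and over the CATAAA match shown above. It held 6, 17 and 26 counts in RANKL replicates 1, 2 and 3 and 18, 23 and 4 counts in control replicates 1, 2 and 3, or 23.4, 46.3 and 39.9 CPM with RANKL and 25.4, 30.1 and 11.4 CPM in controls as a gene sum. RANKL replicate 1 overlapped the controls, and the log2 fold change of 0.66 ± 0.40 (SE) did not pass the test (edgeR adjusted p = 0.286).

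Ush1c (chromosome 7, 46195350 to 46238490) encodes harmonin, the PDZ scaffold of the complex. Its 1 window, 1854 bp inside the gene, summed to 39.0, 57.2 and 39.9 CPM in RANKL replicates 1, 2 and 3 and to 40.9, 30.1 and 73.8 CPM in control replicates 1, 2 and 3 (log2 fold change 0.02 ± 0.32, SE, edgeR adjusted p = 0.976, 95% interval -0.60 to 0.65). The controls spanned more than the RANKL libraries, from below to above them.

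Myo7b (chromosome 18, 31959234 to 32036931) encodes the myosin that places the complex at the tips. Its 5 windows summed to 191, 188 and 161 CPM in RANKL replicates 1, 2 and 3 and to 173, 184 and 187 CPM in control replicates 1, 2 and 3, with overlap (log2 fold change -0.04 ± 0.15, SE, edgeR adjusted p = 0.909, 95% interval -0.33 to 0.26). The window 37566 bp inside was the most accessible of all 40, with 106, 130 and 111 CPM with RANKL and 103, 113 and 99.02 CPM in controls (0.12 ± 0.18), and that 29 bp outside a gene end had 48.8, 46.2 and 44.2 CPM with RANKL and 45.8, 34.2 and 42.4 CPM in controls (0.18 ± 0.31). Per 200-bp window, the mean level over all libraries ran from 18.6 CPM at Cdhr2 to 46.8 CPM at Ush1c.

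Counts in 2 kb around the same centres, recovered from the second deposited table, gave more reads and called windows at Ezr and Cdhr5 as well as at Eps8. All 40 windows could be tested, of which 2 were lower and 2 higher, against 10.2% lower and 8.37% higher among all 49935 tested 2-kb windows (edgeR, adjusted p at or under 0.05). As gene sums Eps8 was lower and Cdhr5 higher and the other 8 were not called, against 12.4% lower and 9.41% higher among all 15583 tested genes. The median log2 fold change was -0.16 over the 40 windows and 0.01 over all. Of the reads in these wider windows, 33.9% to 36.5% lay in the middle 200 bp in RANKL libraries and 39.9% to 41.0% in control libraries, and the part of this difference in the 2-kb results was not tested.

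At Eps8, the window 37025 bp inside had 32.0, 18.8 and 22.9 CPM in RANKL replicates 1, 2 and 3 and 55.3, 63.9 and 60.4 CPM in control replicates 1, 2 and 3 in these wider counts (log2 fold change -1.34 ± 0.20, SE, edgeR adjusted p = 4.71e-07). The window 5870 bp outside had 20.6, 16.6 and 22.4 CPM with RANKL and 40.5, 33.0 and 45.3 CPM in controls (-0.95 ± 0.23, adjusted p = 0.00187). In both, the groups were well separated. At Cdhr5 the wider window had 33.1, 39.0 and 47.9 CPM with RANKL and 23.7, 27.0 and 24.5 CPM in controls, so that here every RANKL library lay above every control (0.71 ± 0.21, adjusted p = 0.0127). At Ezr the window 19984 bp inside had 21.7, 42.6 and 30.2 CPM with RANKL and 14.4, 11.2 and 9.43 CPM in controls (1.42 ± 0.28, adjusted p = 0.000132). With the gene as the unit, Cdhr5 rose by 0.76 ± 0.22 (adjusted p = 0.0077) in the 2-kb counts, where Ezr had 0.06 ± 0.09 (adjusted p = 0.684).

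**Figure D4:**
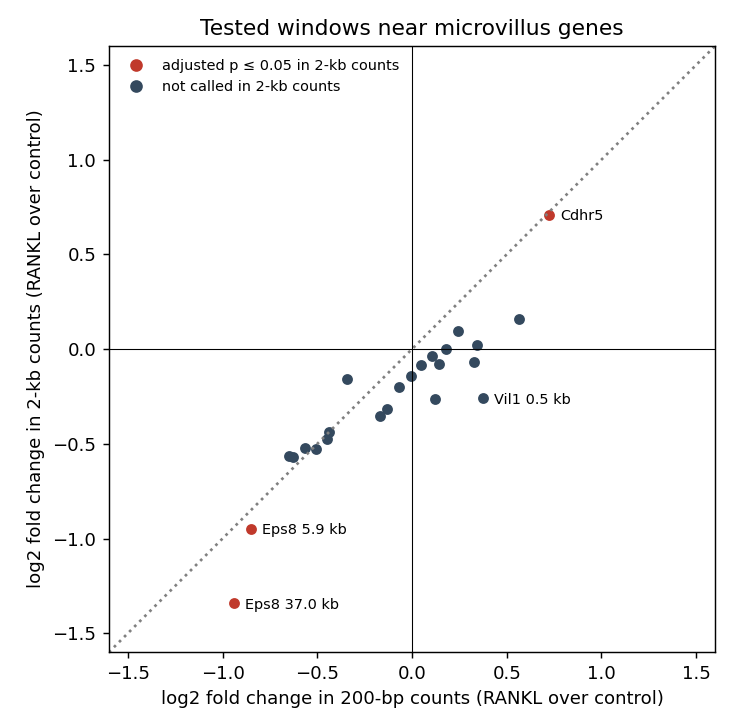
Log2 fold change of RANKL over control in 2-kb counts (y axis) against that in 200-bp counts (x axis) for the 24 windows tested in both, with a dotted line where the values are equal. The 3 windows called in 2-kb counts, 2 of Eps8 (-0.95 and -1.34) and 1 of Cdhr5 (0.71), lie at the ends of the range, and that of Vil1 at 0.5 kb has opposite signs (0.37 and -0.26).

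A list of 41 other genes of microvilli and of the terminal web, the actin and keratin mat below them, held called genes of both directions. Of 34 tested genes 4 were higher, 3 lower and 27 not called in the 200-bp gene sums (7 were below the filter or had no window), and the median log2 fold change was 0.04. Among all tested genes 7.06% were higher and 8.30% lower, so the count of lower genes is near that share. The count of higher genes is somewhat above it, but no test of the list was run and most of these calls ended in some alternatives, given below. Those higher were Tpm1, which encodes a tropomyosin along actin filaments, at 198 ± 19.6 CPM with RANKL and 106 ± 9.29 CPM in controls (SD, n = 3 each, log2 fold change 0.89 ± 0.16, SE, edgeR adjusted p = 4.56e-06), Lima1, which encodes the actin-binding protein EPLIN (0.66 ± 0.17), Myo1c, a class I myosin gene (1.06 ± 0.37), and Actg1, the gamma-actin gene (0.59 ± 0.22). Tpm1 was called in all 18 of its alternatives. The Actg1 call (adjusted p = 0.0455) ended in 11 of 18 alternatives, that of Myo1c (0.0355) in 7 of 18 and that of Lima1 (0.00172) in 5 of 19, among them without RANKL replicate 3 for all 3 genes and without control replicate 1 (Actg1 0.156, Myo1c 0.0863, Lima1 0.0613).

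Those lower were Cobl, which encodes an actin nucleator of the brush border, at 179 ± 14.3 CPM with RANKL and 271 ± 7.10 CPM in controls (SD, n = 3 each, log2 fold change -0.60 ± 0.14, SE, edgeR adjusted p = 0.000443), Krt18, a keratin gene of simple epithelia (-0.84 ± 0.20, adjusted p = 0.000585), and Slk, which encodes a kinase that phosphorylates ezrin (-1.09 ± 0.30, adjusted p = 0.00384). All 3 had RANKL libraries below all controls, but they are named because they were called lower, so this is no separate support. Within 5 kb of a gene end Cobl had -0.66 (adjusted p = 0.199) and Krt18 -0.33 (0.655), and Slk, with 1 window, was called in 18 of 19 alternatives. Anks4b, a partner of the adhesion complex, had 0.02 and was not called. Calml4, also on the list, was below the filter and not tested. It had 62.5, 24.5 and 4.61 CPM in RANKL replicates 1, 2 and 3 and 15.5, 7.84 and 19.9 CPM in control replicates 1, 2 and 3. The 27 genes that were not called lay between -0.40 and 0.71.

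**Figure D5:**
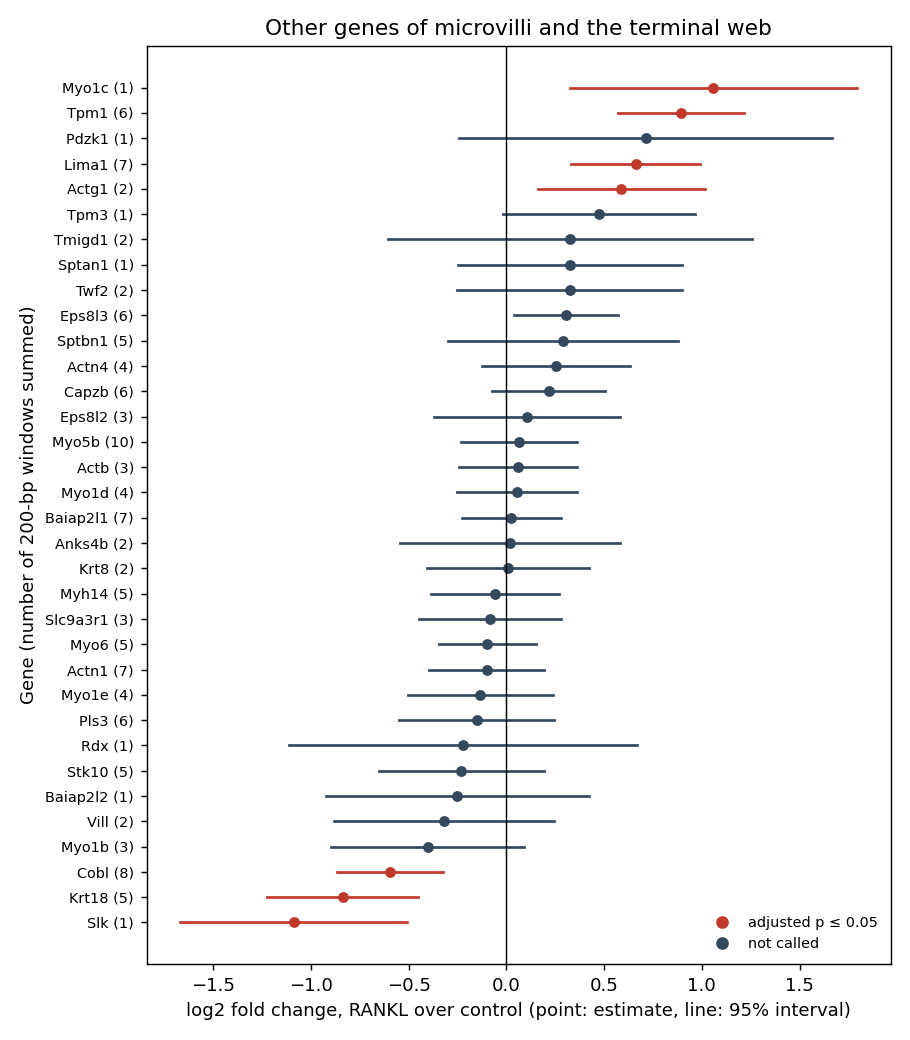
Log2 fold change of RANKL over control, with 95% intervals, for the gene sums of the 34 tested genes of the wider list, sorted by estimate. The genes called higher (0.59 to 1.06) and lower (-1.09 to -0.60) have intervals that exclude 0, and Pdzk1, which was not called, lies among those called higher at 0.71.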

How the data were processed

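ATAC-seq libraries were made from 50000 cells each and read at 38 bp, per the labels' protocols. The authors deposited raw whole-number counts per 200-bp window. A second deposited table gives a score for 55050 windows of 2 kb with the same centres. Judged from its values, the score was made by centring and scaling ln(count + 1) per library, and undoing this gave counts no further than 0.00747 from whole numbers. The submitters' processing notes name, without roles, the build mm10 (GRCm38) and the tools DESeq2 1.34.0, MACS2 2.2.7, Picard, BWA 0.7.17 and fastp 0.20.1. How windows were chosen, reads shifted or duplicates removed is not given in the sources used here.

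Deposited window starts were read as 0-based, and coordinates are given 1-based. Distances run from the nearest window edge to the nearest start or end of 21883 protein-coding genes (RefSeq, GRCm38.p6), and 50 kb or less was found for 38509 windows (69.9%). Positions were not assigned to exons, introns or UTRs. Both levels, single windows and sums per gene, went through edgeR 4.0.16 in R 4.3.3 (TMM, filterByExpr, robust quasi-likelihood fit, no covariates, all 6 libraries), Benjamini-Hochberg adjusted over all tested features, with a threshold of 0.05. SE is the log2 fold change over the root of F. CPM use edgeR's library sizes, which differ slightly between windows and gene sums. The scripts were tested on simulated data. Alternatives were DESeq2 1.42.0, other scalings, no filter, a replicate block, leaving out each library, thinning to equal depth, 2-kb counts and other distances.

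The named genes are all 10 members with their windows and, of the wider list, every called gene. Some marker genes and a few uncalled genes of the wider list are also named. The members, lists and tests were chosen with earlier results of these data known, and the motifs and loess-corrected 2-kb counts after the data were seen. No molecular identifiers are named in the labels, so reads may not be independent molecules.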

Additional observations from a re-analysis of the deposited data

How the results depend on the processing

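Eps8 was lower as a gene under every alternative run and its window 37025 bp inside was called under each, while most estimates that turned sign lay close to 0. Myo1a, Cdhr2 and Cdhr5 had the largest SE of the set (0.42, 0.35 and 0.40), and their 95% intervals take in a 2-fold difference. The part of depth in this was not tested. Recomputed single-gene results were those of the 10 members and of the called genes of the wider list, which had no call to gain. Of these results, 255 kept their direction and side of the threshold, 31 lost a call, 3 gained a call and 27 turned sign. Calls were lost for Actg1 (11), Myo1c (7), Lima1 (5), Krt18 (3), Cobl (2), Slk (1) and the member Eps8 (2). Single-window results were those of the tested member windows and of the inner windows of Eps8. Of these, 404 kept both, 4 lost a call, 5 gained a call and 37 turned sign. All 4 lost calls were of the window 78367 bp inside Eps8, no member. The cause of these changes was not tested.

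Called windows near microvillus genes numbered 0 higher and 1 lower in the 200-bp counts, 2 higher and 2 lower in 2-kb counts, 2 and 3 in loess-corrected 2-kb counts, and 1 higher with no filter. Called microvillus genes numbered 1 higher in 2-kb counts and 2 in loess-corrected 2-kb counts, and 0 lower at limits of 1 kb and 5 kb. The other list had 4 higher and 3 lower genes, 8 higher in loess-corrected 2-kb counts, 2 with DESeq2, 2 after thinning, 0 at 1 kb and 2 at 5 kb, and 1 lower at 1 kb and at 5 kb. Over all windows 2166 were higher and 2169 lower, with 4181 and 5076 in 2-kb counts, 3861 higher with loess correction of these, 1264 and 1039 with DESeq2 and 516 and 721 after thinning. Over all genes 880 were higher and 1035 lower, with 1466 and 1925 in 2-kb counts, 1519 higher with loess correction of these, 406 and 487 with DESeq2, 398 and 508 after thinning, 223 and 322 at 1 kb and 385 and 498 at 5 kb. Leaving out 1 library gave 1337 to 2802 higher and 1475 to 2229 lower windows, 542 to 846 higher and 681 to 935 lower genes, 1 to 4 higher genes of the other list and 0 to 1 higher window near microvillus genes.

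Gene estimates that turned sign were, in 2-kb counts, Vil1 (-0.042), and with loess correction of these Espn (0.049), Myo7b (0.084), Ush1c (-0.025) and Pls1 (0.052). Loess correction of the 200-bp counts gave Myo7b 0.071 and Ush1c -0.044, DESeq2 gave Ush1c -0.011 and thinning gave Ush1c -0.23. A limit of 1 kb gave Ezr -0.71 and Myo7b 0.040, 5 kb gave Ezr -0.68, Myo7b 0.066 and Ush1c -0.014, and 200 kb gave Ezr -0.0019. Window estimates that turned sign were, in 2-kb counts, Vil1 at 452 bp (-0.26), Ezr at 45181 bp (-0.070), Myo7b at 37566 bp (-0.27) and 29 bp (-0.0016), Ush1c at 1854 bp (-0.038) and Pls1 at 39558 bp (-0.077) and 5557 bp (-0.084). With loess correction of these they were Vil1 at 17072 bp (0.032), Espn at 11152 bp (0.065) and Pls1 over its end (0.091). Pls1 over its end was also 0.017 with DESeq2, 0.0033 with RLE factors, 0.0018 with loess correction and 0.014 with no filter, and Pls1 at 5557 bp was -0.0071 with DESeq2. Thinning gave Ush1c at 1854 bp -0.17 and Eps8 at 73030 bp -0.035 and at 51394 bp 0.040.

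Leaving out 1 library turned the sign of Ezr (-0.15 to 0.13), Myo1a (-0.063 to 0.51), Myo7b (-0.083 to 0.068), Ush1c (-0.26 to 0.35) and Vil1 (-0.087 to 0.12), and of windows of Eps8 at 51394 bp (-0.47 to 0.17), 73030 bp (-0.093 to 0.30) and 83600 bp (-0.12 to 0.43), Ezr at 15660 bp (-0.42 to 0.29), Myo1a at 943 bp (-0.0062 to 0.56), Pls1 over its end (-0.11 to 0.057) and at 5557 bp (-0.53 to 0.22) and Ush1c at 1854 bp (-0.20 to 0.40).

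The labels do not say that libraries of one experiment number were made together, so the numbers were not taken as pairs. Deviations from the group means had correlations of -0.034, 0.015 and -0.013 between libraries of one number. At counts this low, such values cannot show that a shared effect was absent. With the replicate block no member call changed, the call of Actg1 was lost (adjusted p = 0.0886), and Vil1 had -0.006, Ush1c -0.039, Pls1 at 5557 bp -0.15 and Pls1 over its end 0.044.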

Other observations

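A window inside Vil1, 667 bp from its higher-coordinate end, was no member because the end of Usp37 lies nearer, at 617 bp. It had 52.9, 17.3 and 42.6 CPM in RANKL replicates 1, 2 and 3 and 34.4, 48.7 and 56.6 CPM in control replicates 1, 2 and 3, which overlapped (-0.27 ± 0.32 on the log2 scale, edgeR adjusted p = 0.602). In 2-kb counts every RANKL library was below every control, at 26.3, 20.9 and 17.7 CPM with RANKL and 28.8, 28.3 and 38.7 CPM in controls, without passing the test (-0.58 ± 0.25, adjusted p = 0.0945). At Ezr, the window 11446 bp inside held 0, 7 and 0 counts in RANKL replicates 1, 2 and 3 and 4, 4 and 1 counts in control replicates 1, 2 and 3, so 1 RANKL library had all of that group's reads.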
